A study of Arabidopsis thaliana with 8 samples.

Results

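The genes described here make and break down abscisic acid (ABA), the plant hormone that governs embryo maturation and seed dormancy. The 10 genes were taken by identifier from the 33602 gene models counted: ABA1 (AT5G67030), ABA2 (AT1G52340), AAO3 (AT2G27150), the dioxygenase genes NCED3 (AT3G14440), NCED5 (AT1G30100), NCED6 (AT3G24220) and NCED9 (AT1G78390), and the hydroxylase genes CYP707A1 (AT4G19230), CYP707A2 (AT2G29090) and CYP707A3 (AT5G45340). Their transcripts were measured by RNA sequencing in epidermis and in mesophyll, 4 libraries each, cut by laser microdissection from cotyledons in paraffin sections of Arabidopsis seeds. Both tissues came from untreated greenhouse-grown wild-type Col-0 plants, whose stage is labelled Boyes 6.30. The study names the embryo stage in 2 ways, torpedo where it gives results and linear where it gives methods. By its methods, sections of several siliques from a single plant were pooled for each replicate, with harvests on separate dates, and no label links a replicate number to such a date.

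ABA is made from carotenoids. In the plastid, zeaxanthin epoxidase, encoded by ABA1, forms violaxanthin, and the 9-cis-epoxycarotenoid dioxygenases (NCEDs) cleave its cis derivatives to xanthoxin, the first committed step. In the cytosol the short-chain dehydrogenase ABA2 turns xanthoxin into abscisic aldehyde, which the aldehyde oxidase AAO3 oxidizes to ABA. The CYP707A cytochromes P450 inactivate ABA by hydroxylation at its 8′ carbon. In Arabidopsis seeds, NCED6 is known from the endosperm, NCED9 from the embryo and the endosperm, and CYP707A1 and CYP707A2 from successive phases of seed development and germination.

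Because 2 of the dioxygenase genes gave no read at all, the sequences by which reads of the family are told apart are shown first. Below are matching coding stretches of 100 bases from the 4 NCED genes, read from TAIR10.1 on the coding strand, 5′ to 3′. Capitals mark bases that differ from NCED9, whose stretch lies at chr1:29491599-29491698 on the minus strand in its single exon.
NCED9: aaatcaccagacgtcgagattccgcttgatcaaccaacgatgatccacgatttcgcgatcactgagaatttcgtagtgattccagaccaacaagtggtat
NCED5: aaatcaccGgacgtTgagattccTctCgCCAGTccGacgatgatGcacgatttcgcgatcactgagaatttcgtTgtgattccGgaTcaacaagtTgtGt
NCED3: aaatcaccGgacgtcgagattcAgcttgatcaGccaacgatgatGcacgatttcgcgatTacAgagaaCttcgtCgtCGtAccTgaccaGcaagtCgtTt
NCED6: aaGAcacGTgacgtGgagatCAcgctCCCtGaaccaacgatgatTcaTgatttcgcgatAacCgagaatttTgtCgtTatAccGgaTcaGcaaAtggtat
The stretches of NCED5 (chr1:10572343-10572442, plus strand), NCED3 (chr3:4832388-4832487, minus strand) and NCED6 (chr3:8762366-8762465, plus strand) shared 84, 85 and 77 of the 100 bases with NCED9. Over the whole transcripts, no 100-base window of an NCED gene recurred in another annotated transcript. At 31 bases, the shortest read kept, NCED3 shared 20 of 2700 windows with NCED5 and NCED9.

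The hydroxylases are shown in the same way, with capitals for bases that differ from CYP707A2, whose stretch lies at chr2:12498354-12498453 on the minus strand.
CYP707A2: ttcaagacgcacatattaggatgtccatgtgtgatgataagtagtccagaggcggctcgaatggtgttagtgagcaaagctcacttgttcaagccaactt
CYP707A1: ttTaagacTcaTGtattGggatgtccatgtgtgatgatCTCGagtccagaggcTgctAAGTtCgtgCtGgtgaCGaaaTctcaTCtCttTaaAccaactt
CYP707A3: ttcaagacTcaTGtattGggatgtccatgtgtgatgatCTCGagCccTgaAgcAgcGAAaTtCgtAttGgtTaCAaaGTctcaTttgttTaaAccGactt
The stretches of CYP707A1 (chr4:10521810-10521909, plus strand) and CYP707A3 (chr5:18370491-18370590, minus strand) shared 75 and 72 of 100 bases with CYP707A2. No 100-base window was shared among the hydroxylase genes, and 26 windows of 31 bases were shared between CYP707A1 and CYP707A3. CYP707A2 also has a run of A in its 5′ UTR, which is given with its counts. ABA2 was the exception in uniqueness, since 272 of its 1085 windows of 100 bases were shared with AT1G52330 and AT1G07803, which overlap it. Reads that match AT1G52330 equally well were removed in counting, and by how much this lowers the count of ABA2 was not tested.

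The libraries held 27676412 to 36685627 counted read pairs in the epidermis and 28155799 to 33715119 in the mesophyll, so that 3 pairs, the limit a count of 0 allows, stood for 0.0818 to 0.108 CPM, read pairs per 1000000 counted. Levels below are in CPM scaled by the trimmed mean of M values (TMM), and libraries are named by tissue and replicate number. Limits and intervals on counts cover counting error only, as the reads carry no molecular identifiers. The study reports a slightly lower RNA integrity for the epidermis than for the mesophyll. Its part in the detection of low genes was not tested. All 8 epidermis markers, such as PDF1 and ATML1, were higher in the epidermis, and their summed level ranged from 3547 to 6382 CPM there and from 262 to 740 CPM in the mesophyll. The 8 photosynthesis markers summed to 12089 to 17710 CPM in the epidermis and 18745 to 20900 CPM in the mesophyll. Some markers of other seed tissues were also read. The 15 endosperm markers summed to 254 to 374 CPM in the epidermis and 18.6 to 73.2 CPM in the mesophyll. The 14 seed coat markers summed to 16.7 to 59.8 CPM in the epidermis and 7.92 to 18.7 CPM in the mesophyll, and 9 had the higher mean in the epidermis. A few genes carried much of these sums. SUC5, of the endosperm list, averaged 44.6 CPM in the mesophyll. MUM4 and NARS1, of the seed coat list, averaged 16.5 and 14.1 CPM in the epidermis. The endosperm markers MYB115, PHE1 and YUC10 and the seed coat marker TT16 were at 0 in every library. The sums of the 13 vascular markers overlapped, at 144 to 419 CPM in the epidermis and 327 to 667 CPM in the mesophyll.

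Of the 10 genes, 8 had a pair in at least 1 library, and 5 (ABA1, ABA2, CYP707A1, CYP707A2 and CYP707A3) reached 1 CPM in at least 4 of the 8 libraries and were tested. In edgeR's quasi-likelihood test, with p adjusted over all 15794 genes tested, 0 of these 5 differed between epidermis and mesophyll, where 1.08% of all tested genes did (0.981% higher and 0.101% lower in the epidermis). At an unadjusted p under 0.05 there was 1 of 5, CYP707A2, against 11.8% of all tested genes. The likelihood ratio test also gave 0 of 5, where it gave 5.2% of all tested genes, as did DESeq2, where 8.36% of all tested genes passed, and limma-voom, where 2.6% did. At an unadjusted p under 0.05, DESeq2 gave 2 of 5, where it gave 2813 of all 15794 tested genes.

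**Figure D1:**
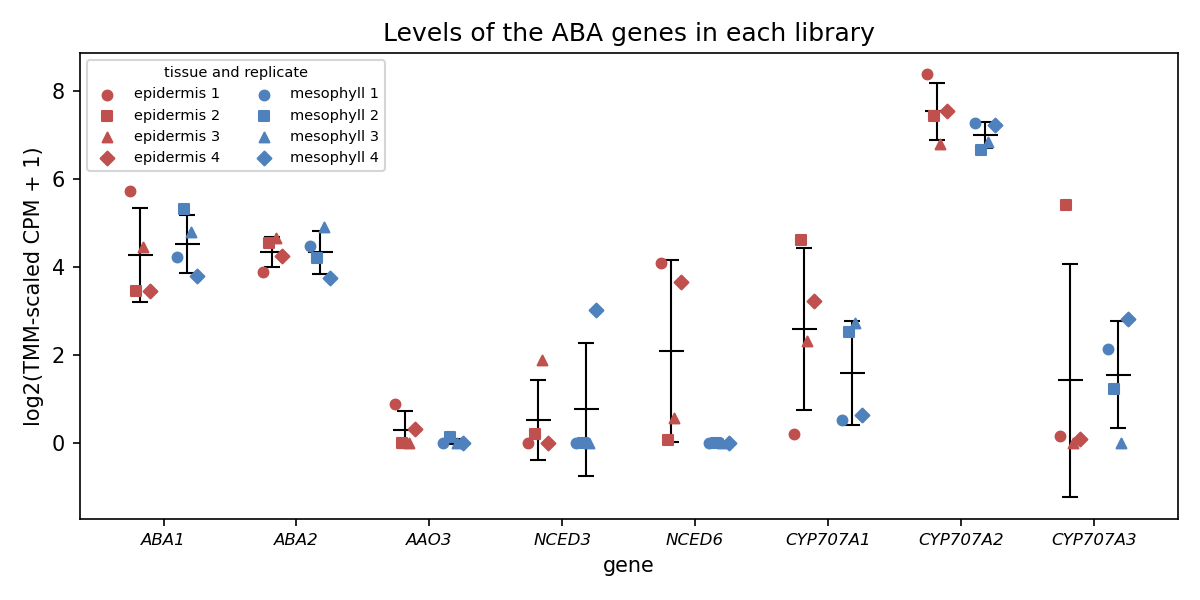
Level of each ABA gene with a read pair, as log2(TMM-scaled CPM + 1), in epidermis (red, left) and mesophyll (blue, right); symbols are replicates 1 to 4, and black bars are the mean and SD over 4 libraries. ABA1, ABA2, CYP707A1 and CYP707A2 have a signal in all 8 libraries with overlapping tissues, NCED6 only in the epidermis, and NCED5 and NCED9, at 0 in every library, are not drawn.

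ABA1 and ABA2, of an early and a late step of synthesis, were read in every library, and their tissues overlapped. In RNA pooled from many cells, fewer expressing cells and less RNA per cell cannot be told apart, here or for any gene below. ABA1 (chr5:26753469-26757402, minus strand, 16 exons) stood at 51.7, 9.97, 21.0 and 9.87 CPM in epidermis 1 to 4, and at 17.7, 38.7, 26.6 and 12.8 CPM in mesophyll 1 to 4. The mesophyll values lay within the span of the epidermis values, whose highest was epidermis 1. Its mean was 23.1 ± 19.8 CPM in the epidermis and 24.0 ± 11.4 CPM in the mesophyll (SD, n = 4 each). The log2 fold change of ABA1, epidermis over mesophyll, was -0.29 with an SE of 0.58 and a 95% interval of -1.62 to 1.03 (edgeR adjusted p = 0.913).

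ABA2 (chr1:19489794-19491650, minus strand, 2 exons) had levels close to those of ABA1 and a smaller spread. It stood at 13.7, 22.3, 24.2 and 18.0 CPM in epidermis 1 to 4, and at 21.2, 17.4, 29.1 and 12.3 CPM in mesophyll 1 to 4. The epidermis values lay within the span of the mesophyll values. The means were 19.6 ± 4.67 CPM in the epidermis and 19.99 ± 7.06 CPM in the mesophyll (SD, n = 4 each), and the log2 fold change was 0.0056, with an SE of 0.41 and a 95% interval of -0.94 to 0.95 (edgeR adjusted p = 0.998). For both genes, differences within these intervals were not resolved by 4 libraries a tissue.

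AAO3 (chr2:11601727-11608450, plus strand, 9 exons), the gene of the last step, was near the limit of detection. It had 29, 0, 0 and 7 read pairs in epidermis 1 to 4, and 0, 3, 0 and 0 in mesophyll 1 to 4. It was thus read in 2 of 4 epidermis and 1 of 4 mesophyll libraries, and the tissues overlapped at 0. In the exact two-sided permutation test of its level, p was 0.429, where the smallest p that 70 arrangements allow is 0.0286 (n = 4 each).

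Among the dioxygenases, which carry out the committed step, no gene was read in all 8 libraries, and mesophyll 1 to 3 held no pair of any of them. Summed over the 4 NCED genes, the epidermis libraries held 543, 5, 98 and 343 pairs and the mesophyll libraries 0, 0, 0 and 222. NCED5 and NCED9 had 0 pairs in all 8 libraries. Over the 246800207 pairs of these libraries, a count of 0 allows up to 0.0122 CPM, an upper limit that covers counting error only.

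NCED3 (chr3:4831286-4834015, minus strand, 1 exon), known as the stress-induced NCED of leaves and roots, had 0, 4, 83 and 0 pairs in epidermis 1 to 4, and 0, 0, 0 and 222 in mesophyll 1 to 4. Those are 2.69 CPM in epidermis 3 and 7.14 CPM in mesophyll 4, with every other library at 0.142 CPM or less. Each tissue thus had 1 library that stood apart, and the exact two-sided permutation test gave p = 1 (n = 4 each).

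NCED6 (chr3:8761419-8763303, plus strand, 1 exon) was, of the 10 genes, the sole gene whose tissues did not overlap, where 4.44% of all genes with a pair had every epidermis library above every mesophyll library. It had 543, 1, 15 and 343 pairs in epidermis 1 to 4, which are 15.9, 0.0356, 0.487 and 11.5 CPM, and 0 pairs in each of the 4 mesophyll libraries. Epidermis 1 and 4 held nearly all of the signal, and the single pair in epidermis 2 is within the limit that a count of 0 allows. Its mean in the epidermis, 6.99 ± 7.98 CPM (SD, n = 4), was at least 71.6-fold higher than a floor of 3 pairs per mesophyll library. Without replicate 1, where epidermis 4 remained, it was at least 42.4-fold higher. These bounds hold for the mean that epidermis 1 and 4 carried and not for each library. Epidermis 2 lay below the floor, which was 0.0976 CPM. The exact two-sided permutation test gave p = 0.0286, the smallest p it can give here, for 1 of the 3 genes tested in that way (n = 4 each). Both the separation and this p rest on the single pair in epidermis 2: with that library set to 0, tried after the data were seen, the exact permutation p was 0.143. NCED6 did not reach the filter of the fit, and with no filter on low counts its edgeR adjusted p over 22886 genes was 0.148, where 1.07% of genes passed.

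The summed level of the endosperm markers was also higher in the epidermis. It was 337, 293, 254 and 374 CPM in epidermis 1 to 4, and 58.1, 69.3, 18.6 and 73.2 CPM in mesophyll 1 to 4. Of the 15 markers, 10 had the higher mean in the epidermis, and the sums did not overlap (exact two-sided permutation p = 0.0286, n = 4 each). The 2 libraries with most NCED6, epidermis 1 and 4, were also the 2 with the highest marker sum, but the single markers differed in their order. Of the 7 endosperm markers that were tested, 2 (MYB118 and EPR1) were highest in epidermis 1 and 4 and 5 were not. SUC5, a sucrose transporter gene with the largest share of the sum in epidermis 2, stood at 172, 201, 92.2 and 114 CPM in epidermis 1 to 4, and at 54.4, 47.0, 16.5 and 60.6 CPM in mesophyll 1 to 4. The part of endosperm RNA in the NCED6 signal was not tested.

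**Figure D2:**
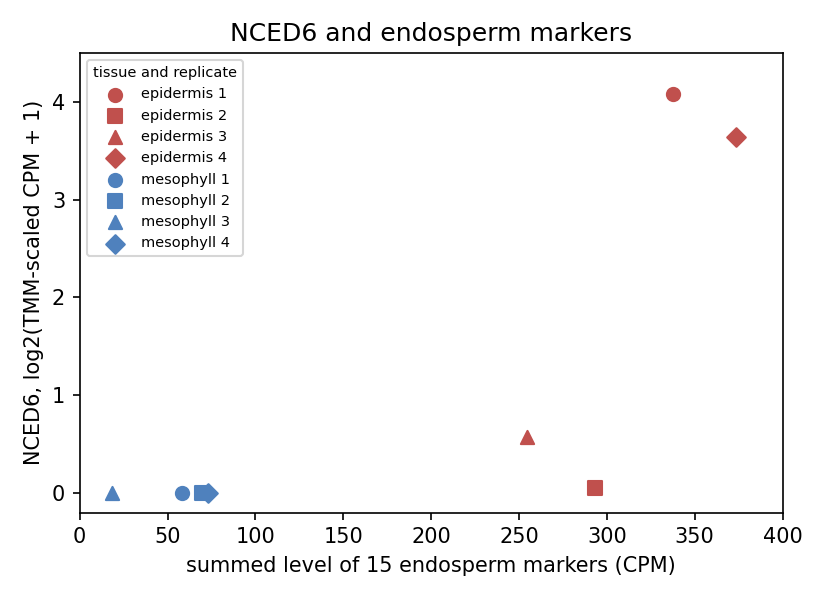
Level of NCED6 as log2(TMM-scaled CPM + 1) against the summed level of 15 endosperm markers in CPM, 1 point per library, with epidermis in red and mesophyll in blue. Epidermis 1 and 4, at 337 and 374 CPM of the markers, hold 15.9 and 11.5 CPM of NCED6, and the 4 mesophyll libraries lie at 0 NCED6 below 75 CPM of the markers.

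Of the breakdown genes, CYP707A2 (chr2:12494826-12499723, minus strand, 9 exons) had by far the highest count of the 10 genes, but its counts need to be read with a feature of its transcript. It stood at 333, 173, 110 and 186 CPM in epidermis 1 to 4, and at 154, 101, 114 and 149 CPM in mesophyll 1 to 4. The tissues overlapped, and epidermis 1 was the highest library. Its means were 200.5 ± 94.3 CPM in the epidermis and 129.5 ± 26.2 CPM in the mesophyll (SD, n = 4 each). The log2 fold change was 0.54, with an SE of 0.22 and a 95% interval of 0.03 to 1.06, which did not pass after adjustment (edgeR adjusted p = 0.393).

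The feature is a run of 16 A bases in the 5′ UTR, shown in capitals within 30 bases of the spliced transcript of TAIR10.1. The run itself lies at chr2:12499569-12499584 on the minus strand, in the first exon, and the stretch shown crosses into the next exon.
CYP707A2 5′ UTR: aacattcAAAAAAAAAAAAAAAAcaaaaaa
Runs were read from the TAIR10.1 exons of each gene and were not checked in the counted models. For CYP707A2 the TAIR10.1 transcript has 2000 bases and the counted model 1975. Among the 33602 models, 200 had at least 20 A or T bases in a row in such an exon. Together they took 153357, 118414, 68145 and 141459 CPM in epidermis 1 to 4, and 78990, 66080, 69242 and 80318 CPM in mesophyll 1 to 4. CYP707A2 followed this sum. Per 1000 CPM of it, CYP707A2 had 2.17, 1.46, 1.62 and 1.31 CPM in epidermis 1 to 4, and 1.95, 1.52, 1.65 and 1.86 CPM in mesophyll 1 to 4. On that scale the mean was 1.64 ± 0.376 in the epidermis and 1.75 ± 0.195 in the mesophyll (exact two-sided permutation p = 0.629, n = 4 each). The sum used as divisor was itself higher in epidermis 1, 2 and 4 than in every mesophyll library. Dividing by it lowers any epidermis excess, so the ratio cannot decide whether CYP707A2 differed between the tissues. The SD of the log2 ratio of CYP707A2 to the sum over the 8 libraries was 0.237, and 1.01% of the 3547 genes at 50 CPM or more had a smaller one. CYP707A2 also had 1.81 single reads per counted pair, where the median of 14079 genes was 2.21 and 0.369% of genes were lower. These comparisons with A/T runs were chosen after the data were seen. How much of the CYP707A2 count comes from its run was not tested, and every level of CYP707A2 given here carries that limit.

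**Figure D3:**
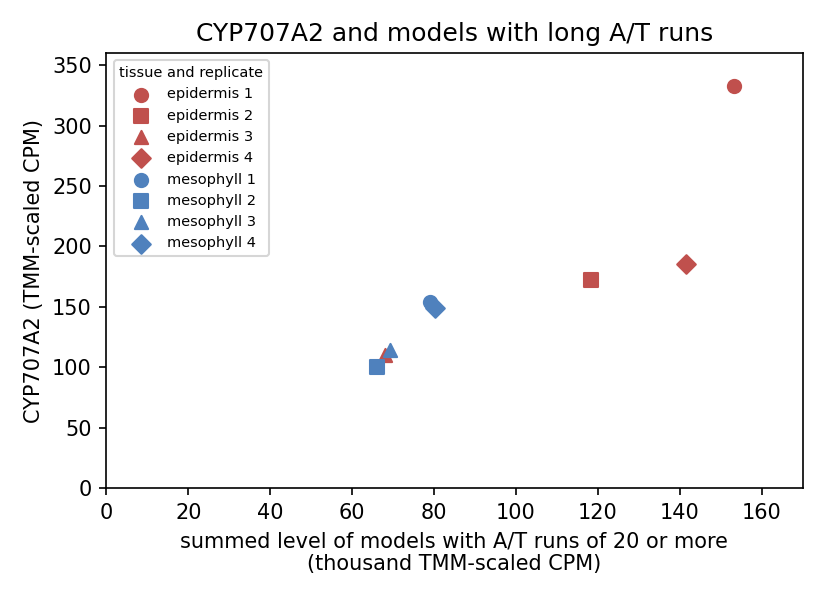
Level of CYP707A2 in TMM-scaled CPM against the summed level of 200 gene models with at least 20 A or T bases in a row in a TAIR10.1 exon. The sum is on an axis in units of 1000 CPM, with 1 point per library, epidermis in red and mesophyll in blue. Epidermis 1, at 333 CPM, has the highest sum, 153357 CPM, and epidermis 3 lies among the mesophyll libraries.

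For CYP707A1 and CYP707A3 the spread between epidermis replicates was larger than the difference between tissues. CYP707A1 (chr4:10521259-10523961, plus strand, 7 exons) stood at 0.147, 23.3, 3.96 and 8.39 CPM in epidermis 1 to 4, and at 0.427, 4.68, 5.57 and 0.547 CPM in mesophyll 1 to 4. Every library held some CYP707A1, the mesophyll values lay within the span of the epidermis, and epidermis 2 was highest. The means were 8.95 ± 10.2 CPM in the epidermis and 2.81 ± 2.70 CPM in the mesophyll (SD, n = 4 each), with a log2 fold change of 1.07, an SE of 1.34 and a 95% interval of -2.003 to 4.14 (edgeR adjusted p = 0.852).

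CYP707A3 (chr5:18368532-18371021, minus strand, 6 exons) had 4, 1161, 0 and 2 pairs in epidermis 1 to 4, and 95, 46, 0 and 189 pairs in mesophyll 1 to 4. Its epidermis signal thus lay in 1 library, at 41.3 CPM, while 3 of 4 mesophyll libraries held 1.35 to 6.08 CPM. The means were 10.4 ± 20.6 CPM in the epidermis and 2.70 ± 2.65 CPM in the mesophyll (SD, n = 4 each). The direction was not fixed by these data: the log2 fold change was -3.47 with an SE of 2.92 and a 95% interval of -10.33 to 3.39 (edgeR adjusted p = 0.756), against the order of the means, and was 1.94 in the fit with no replicate block (adjusted p = 0.823).

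**Figure D4:**
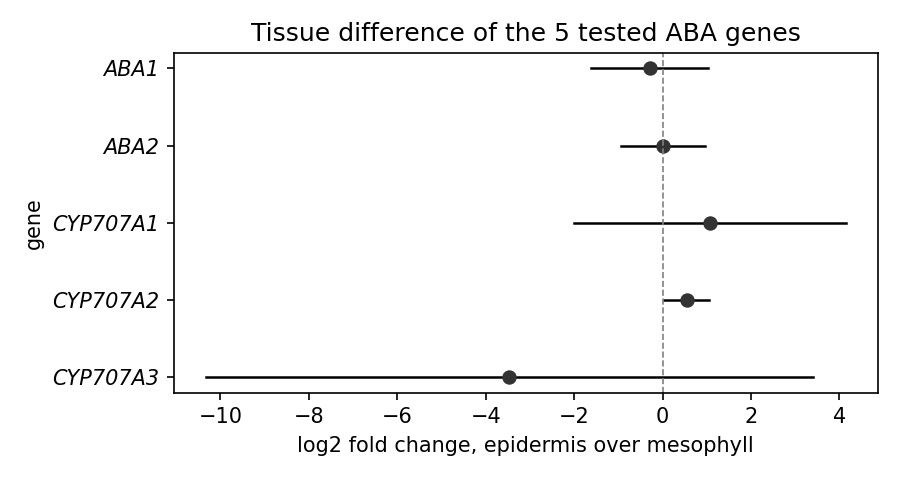
Log2 fold change, epidermis over mesophyll, of the 5 ABA genes tested, with 95% intervals from edgeR's quasi-likelihood fit and a dashed line at 0. The intervals of ABA1, ABA2, CYP707A1 and CYP707A3 span 0, and that of CYP707A2 runs from 0.03 to 1.06 before adjustment over all genes.

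Set side by side per kilobase of gene model, the genes took the same order in both tissues for the first few places. CYP707A2 stood at 101 ± 47.7 CPM per kb in the epidermis and 65.6 ± 13.3 in the mesophyll, ABA2 at 16.5 ± 3.95 in the epidermis and 16.9 ± 5.97 in the mesophyll, and ABA1 at 9.70 ± 8.28 in the epidermis and 10.05 ± 4.76 in the mesophyll (SD, n = 4 each). Of the 15794 tested genes, 90.4% lay below CYP707A2, 58.3% below ABA2 and 42.1% below ABA1 in mean level per kb. CYP707A2 lay above ABA2 in every library with no overlap in either tissue, within the limit of its A run. ABA2 and ABA1 overlapped in both tissues. ABA1 lay above CYP707A3 without overlap in the mesophyll but not in the epidermis, and every lower neighbour in the order overlapped. CYP707A3 and then CYP707A1 came next by mean in both tissues. CYP707A3 averaged 5.74 CPM per kb in the epidermis and 1.49 in the mesophyll, and CYP707A1 4.49 in the epidermis and 1.41 in the mesophyll. Below these, the order of the means was not the same in both tissues. NCED6 averaged 4.02 CPM per kb in the epidermis and 0 in the mesophyll, NCED3 0.307 in the epidermis and 0.772 in the mesophyll, and AAO3 0.0625 in the epidermis and 0.00505 in the mesophyll, so that NCED6 came before NCED3 and AAO3 in the epidermis and after them in the mesophyll. Of the summed level per kb of the 10 genes, CYP707A2 made up 60.3% to 79.8% in the epidermis and 59.9% to 77.0% in the mesophyll.

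The genes whose levels followed each ABA gene most closely over the 8 libraries were found by Pearson's r of log2(CPM + 1) among 15793 tested genes, as a description of libraries that share depth and tissue. ABA1 was nearest to HCF106 (r = 0.943), of the thylakoid twin-arginine translocation system, and to the Rab GTPase gene ARA6 (r = 0.941). ABA2 was nearest to AT1G06760 (r = 0.985) and AT1G63490 (r = 0.947). CYP707A1 was nearest to ATPUP13 (r = 0.982), of the purine permease family, and CYP705A16 (r = 0.958), and CYP707A3 to AT2G01400 (r = 0.950) and AT5G24970 (r = 0.937). The neighbours of CYP707A2 had a shared sequence feature. The nearest, AT4G12690 (r = 0.989) and AT1G28620 (r = 0.985), have runs of 18 and 15 A or T bases, and 60 of the 90 genes with r above 0.9 (66.7%) have a run of 15 or more, against 4.32% of all tested genes.

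The rest of the pathway was described with 9 lists of 96 genes. Of these, 86 had a pair in some library and 59 were tested. In edgeR's quasi-likelihood test 0 of the 59 passed in either direction, and 7 (11.9%) had an unadjusted p under 0.05, beside 11.8% of all tested genes. Their log2 fold changes were positive for 29 and negative for 30, with a median of -0.02, where that of all tested genes was -0.04.

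**Figure D5:**
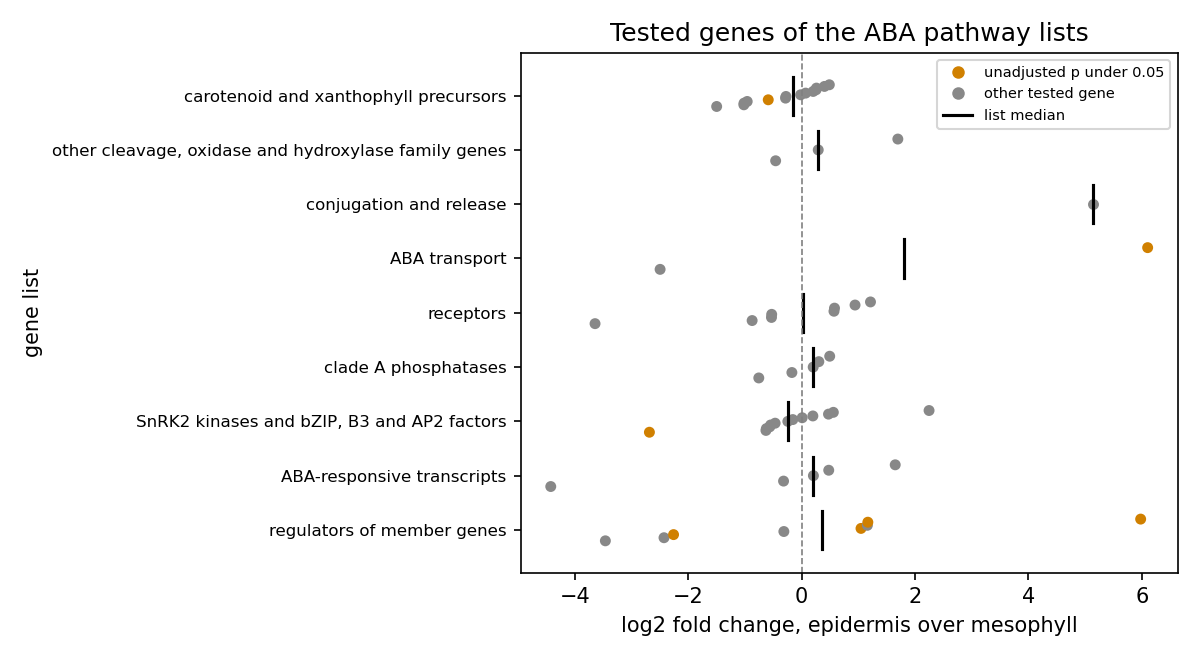
Log2 fold change, epidermis over mesophyll, of the 59 tested genes of 9 ABA pathway lists, 1 row per list, with the list median as a black bar and genes at an unadjusted p under 0.05 in orange. The points lie on both sides of 0, and the 7 orange ones include ABCG25 at 6.10 and ABI5 at -2.69.

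Upstream of ABA1, 14 of the 15 carotenoid and xanthophyll precursor genes were tested and 0 passed, with a median log2 fold change of -0.15. The smallest p was that of DXR, an enzyme of the plastidial isoprenoid pathway, which averaged 115 ± 36.3 CPM in the epidermis and 168 ± 21.3 CPM in the mesophyll (edgeR adjusted p = 0.373). ABA4, needed for neoxanthin synthesis between ABA1 and the NCEDs, averaged 39.99 ± 17.4 CPM in the epidermis and 32.6 ± 6.33 CPM in the mesophyll (adjusted p = 0.907). In the list of related cleavage, oxidase and hydroxylase genes, 3 of 10 were tested and 0 passed. NCED2 and CYP707A4, the remaining relatives of the NCED and CYP707A genes, had 0 pairs in all 8 libraries. CCD1, a carotenoid cleavage dioxygenase outside the ABA route, averaged 94.1 ± 35.7 CPM in the epidermis and 123 ± 19.7 CPM in the mesophyll (adjusted p = 0.684). ABA3, which activates the molybdenum cofactor of AAO3, was read in every library, at 6.64 ± 3.998 CPM in the epidermis and 4.42 ± 1.199 CPM in the mesophyll (adjusted p = 0.954).

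Downstream, transport and conjugation genes were mostly too low to test, with 2 of 6 and 1 of 6 tested and 0 passing. ABCG25, an ABA exporter known from vascular tissue, stood at 14.2, 16.7, 2.69 and 7.72 CPM in epidermis 1 to 4, and at 0.427, 1.40, 0 and 0 CPM in mesophyll 1 to 4. Its tissues did not overlap, where 5.48% of all tested genes had every epidermis library above every mesophyll library. The log2 fold change of ABCG25, 6.10 with an SE of 1.59, did not pass after adjustment (edgeR adjusted p = 0.147). UGT71C5, an ABA glucosyltransferase, averaged 4.77 ± 5.56 CPM in the epidermis and 1.78 ± 3.51 CPM in the mesophyll (adjusted p = 0.504).

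Of the signalling genes, 8 of 14 receptor genes, 5 of 9 clade A phosphatase genes and 13 of 13 genes of SnRK2 kinases and bZIP, B3 and AP2 factors were tested, and 0 passed in each list. The smallest p among receptors was that of PYL4, at 17.3 ± 10.04 CPM in the epidermis and 6.63 ± 2.92 CPM in the mesophyll (edgeR adjusted p = 0.471), and among phosphatases that of HAB1, at 9.25 ± 4.62 CPM in the epidermis and 15.03 ± 7.18 CPM in the mesophyll (adjusted p = 0.740). ABI3, a B3 factor of seed maturation, was read evenly at 161 ± 24.3 CPM in the epidermis and 189 ± 15.7 CPM in the mesophyll (adjusted p = 0.672). The bZIP factor gene ABI5 stood at 1.67, 6.98, 1.56 and 0.235 CPM in epidermis 1 to 4, and at 14.2, 10.3, 5.94 and 11.97 CPM in mesophyll 1 to 4. Its values overlapped only between epidermis 2 and mesophyll 3, and the log2 fold change was -2.69 with an SE of 1.14 (adjusted p = 0.408). Of 12 ABA-responsive transcripts 5 were tested and 0 passed, and the smallest p was that of P5CS1, of proline synthesis, at 105 ± 28.3 CPM in the epidermis and 74.0 ± 12.7 CPM in the mesophyll (adjusted p = 0.450).

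Of 11 genes listed as regulators of ABA synthesis and breakdown genes, 8 were tested. The list was chosen with earlier results of these data known, and whether its genes regulate the 10 genes was not tested. In edgeR's quasi-likelihood test 0 passed and 4 (50%) had an unadjusted p under 0.05, beside 11.8% of all tested genes. The fold changes of the 8 were positive for 4 and negative for 4. FUS3, a B3 factor of seed maturation, averaged 144 ± 48.2 CPM in the epidermis and 67.9 ± 14.2 CPM in the mesophyll, with a log2 fold change of 1.05 and an SE of 0.27 (edgeR adjusted p = 0.140). The bHLH gene SPT averaged 57.2 ± 15.6 CPM in the epidermis and 25.3 ± 5.74 CPM in the mesophyll, with a log2 fold change of 1.17 and an SE of 0.28 (adjusted p = 0.116). MYB96, a MYB factor of cuticular wax and ABA responses, averaged 20.04 ± 10.11 CPM in the epidermis and 0.930 ± 1.08 CPM in the mesophyll, with a log2 fold change of 5.98 and an SE of 1.95 (adjusted p = 0.248). MFT, a regulator of seed germination and the remaining gene of these 4, was on the other side, at 24.6 ± 23.2 CPM in the epidermis and 69.0 ± 45.1 CPM in the mesophyll, with a log2 fold change of -2.26 and an SE of 0.79 (edgeR adjusted p = 0.285). Of these 4 regulators, FUS3, SPT and MYB96 had every epidermis library above every mesophyll library, and the tissues overlapped for MFT. Over all tested genes, 5.48% were separated in that way. The 4 were picked by their p on the same values, so their separation cannot be set against that share. The summed endosperm markers were also higher in the epidermis libraries, and their part in these levels was not tested. The study, with a likelihood ratio test, listed FUS3, SPT and MYB96 among the transcription factors differentially expressed in the epidermis. Here edgeR's likelihood ratio test passed 5.2% of all tested genes, where the quasi-likelihood test passed 1.08%. Its calls for the pathway lists are not given here.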

How the data were processed

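RNA was extracted from microdissected epidermis and mesophyll, 4 libraries each, and poly(A) cDNA was made with a SMART-Seq v4 kit, without strand information. The authors trimmed reads, removed ribosomal reads with sortMeRNA, aligned pairs to TAIR10 representative gene models with Bowtie2 and counted them with their own script (TopHat2 also stands in the submitters' processing notes). The deposited counts are unscaled numbers of read pairs assigned to each gene model, without pairs that matched another model equally well. Single-read counts were used only as an alternative. The reads carry no molecular identifiers and are not independent molecules.

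Counts were analysed in R 4.3.3 with edgeR 4.0.16. Genes at 1 CPM or more in at least 4 of 8 libraries (15794) were scaled by TMM and fitted with replicate number plus tissue. The quasi-likelihood F test in its legacy form was used with Benjamini-Hochberg adjustment over all genes and a threshold of 0.05. An SE is the fold change over the square root of F. Single values per library were compared by exact permutation over 70 arrangements. Levels between genes were divided by the model length in the files. TAIR10.1 (RefSeq), matched to 32835 of 33602 models, gave coordinates, exons and sequences. DESeq2 1.42.0, limma-voom (limma 3.58.1), other scalings and filters, single reads, models with A/T runs left out and libraries left out were alternatives. The 10 genes, the lists and the tests were chosen with earlier results of these data known. Named genes were the 10 genes, the gene with the smallest p of each pathway list when none passed, ABA3, ABA4, NCED2, CYP707A4, ABI3, ABI5, FUS3 and MYB96, and the 2 nearest genes by Pearson's r for genes with a mean of at least 5 CPM. MFT, MYB118, EPR1 and SUC5 were chosen after their values were seen.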

Additional observations from a re-analysis of the deposited data

Results flagged for a closer look

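In each group of 4 libraries, a library was picked out when its gap to the nearest of the others, as a share of the group's range, exceeded Dixon's 95% critical value. Chance alone gives about 1 in 20 for normally distributed values. Where all other libraries of a group are at 0, any count in the remaining library is picked out, so that rate does not hold there. Of 43 groups checked, 6 gave a library picked out in this way. For the ABA genes there were 4 in 15 groups, each in a gene with at most 4 pairs in any other library of the tissue: AAO3 in mesophyll 2 at 0.0878 CPM with the other libraries at 0, NCED3 in epidermis 3 at 2.69 CPM with the others at 0.142 CPM or less, NCED3 in mesophyll 4 at 7.14 CPM with the others at 0, and CYP707A3 in epidermis 2 at 41.3 CPM with the others at 0.117 CPM or less. Among pathway genes, UGT71C5 stood at 7.05 CPM in mesophyll 2 with the others at 0.0711 CPM or less. FUS3 stood at 89.3 CPM in mesophyll 4 with the others between 60.4 and 61.3 CPM.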

How the results depend on the processing

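No ABA gene passed the test in any of 23 alternatives. Among the 5 genes of the main fit, the lowest adjusted p was 0.157, for CYP707A2 in DESeq2. NCED6 entered the edgeR fit with no filter on low counts, where its adjusted p was 0.148. CYP707A1 and CYP707A2 kept a positive log2 fold change in all alternatives that tested them, at 0.10 to 2.24 and 0.28 to 0.84. With 1 replicate number or 1 library left out, ABA1 ranged from -0.88 to 0.28, ABA2 from -0.20 to 0.22 and CYP707A3 from -3.63 to 2.37. ABA2, at 0.0056, turned to -0.0304 with no replicate block, -0.0337 in limma-voom, -0.0215 with library totals, -0.0202 with single reads and -0.0165 in the bias-adjusted fit. CYP707A3, at -3.47, turned to 1.94 with no replicate block, 2.16 in limma-voom and 1.58 in the bias-adjusted fit. The bias-adjusted fit was added after the data were seen. CYP707A1 and CYP707A3 were not tested with a filter of 5 CPM, nor CYP707A3 in some of the fits with a library left out.

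Over all genes, 171 passed with the replicate block and 361 with no replicate block, 821 in the likelihood ratio test, 1320 in DESeq2, 410 in limma-voom and 633 in the bias-adjusted fit. Leaving out 1 replicate number gave 54 (replicate 3) to 150 (replicate 4), with 76 without replicate 1, and leaving out 1 library with no block gave 162 to 264 (257 and 264 without epidermis 1 and 3). The difference in the photosynthesis marker sum, -4871 CPM, was -4440 with A/T-run models left out, where its exact permutation p was 0.0571 in place of 0.0286. The causes were not tested. The check of pairing gave correlations between libraries of the same number of 0.0102, -0.0019, 0.0702 and -0.0102, with 1 of 4 matching its own number best, so the numbers were not shown to pair the samples. With 4 libraries a tissue and amplified low-input RNA, the intervals of CYP707A1 and CYP707A3 leave differences of several fold in either direction unresolved.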
